A study of Mus musculus with 289 samples.

Results

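The fibroblast growth factor (FGF) pathway was followed through 10 genes in single astrocytes of the adult mouse cortex. They were the receptors Fgfr1, Fgfr2 and Fgfr3, the ligands Fgf1 and Fgf2, the ETS transcription factors Etv4 and Etv5, and the feedback inhibitors Spry1, Spry2 and Dusp6. The genes were taken by name, through the Ensembl gene IDs of the count tables, out of 55487 gene IDs present in any table. All 10 had a row in 4 of the 5 tables, and Fgf2 had none in that of batch 2. Astrocytes were drawn from the cortex of adult mice that expressed Cas9, with the tip used for electrophysiology, and Smart-seq2 gave 1 library per cell, a full-length method without molecular identifiers. A lentivirus made to act in astrocytes had carried guide RNAs (gRNAs) against Sox9, against Trps1, against both (called dual here), or a control gRNA into the cortex. Cells with no gRNA came from adult animals, and the sources used here do not say whether those animals had been injected. In-slice controls are libraries taken without a cell.

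Batch 1 held 31 no gRNA, 10 control gRNA and 4 dual gRNA cells, and its days are not used because the labels give days that differ between its control and dual gRNA cells and are not the 7 and 21 of the series' design. Batch 2 held 8 control gRNA cells of day 7, 7 control gRNA cells of day 21 and 8 dual gRNA cells of day 21, counted in days after injection. Batch 3 held 6 no gRNA cells and, at day 7, 21 cells with the Sox9 gRNA and 14 with dual gRNAs. Batch 4 held, at day 21, 15 cells with the control gRNA, 16 with the Sox9 gRNA and 13 with dual gRNAs, and at day 7, 14 with the Trps1 gRNA (its Trps1 gRNA cells of day 21 were not analysed here). Batch 5 held 22 no gRNA cells with 21 Sox9 and 30 Trps1 gRNA cells of day 21. The in-slice controls numbered 12, in batches 2 to 5. The sources used here give neither the line of the Cas9 mice nor the number of animals. As the labels name no animal, each gRNA group of a batch and day is 1 pool of cells, and no test was made between pools.

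FGF receptors are tyrosine kinases of the cell surface. When an FGF binds, adaptor proteins pass the signal to Ras and the MAP kinase ERK, and ERK activity drives transcription of the ETS factors Etv4 and Etv5 and of genes whose products dampen the signal. Sprouty proteins (Spry1, Spry2) act on the steps between receptor and ERK, and Dusp6 is a phosphatase that inactivates ERK. Fgfr3 is a familiar marker of astrocytes, and FGF1 and FGF2 lack a classical secretion signal.

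The astrocytes held 15959 to 4656612 reads in genes each and a median of 4230 genes with a read. The shallowest pool was the batch 3 no gRNA pool, with a median of 236508 reads and 3 of 6 cells at 100000 reads or more. All 18 astrocyte markers were read in each of the 16 astrocyte pools, which gave 8496 to 45249 CPM (counts per 1000000 reads in genes) of them in sum. The 14 microglia and macrophage markers summed to 247 to 309 CPM in the 3 no gRNA pools and to 5491 to 12619.7 CPM in the 13 pools with a gRNA. Endothelial markers stayed at 218 CPM or less in every astrocyte pool, though the highest cell of the batch 5 Trps1 gRNA pool held 6047 CPM. Neuron markers summed to 1038 to 5057 CPM over the astrocyte pools, and the highest cell, in the batch 3 Sox9 gRNA pool, held 56574 CPM. Oligodendrocyte progenitor markers summed to 31.2 to 929 CPM. The targeted gene did not check the labels in 1 direction: Sox9 stood at 233 CPM in the Sox9 gRNA pool of batch 5 against 307 CPM with no gRNA, at 189 against 177 CPM of the control gRNA pool in batch 4, and at 1303 against 382 CPM in batch 3. Trps1 stood at 57.6 CPM in the Trps1 gRNA pool of batch 5 against 96.5 CPM with no gRNA, but in the dual gRNA pools at 16.7 against 3.35 CPM of control in batch 4, 112 against 4.61 CPM in batch 1, 294 against 109 CPM with no gRNA in batch 3 and 19.4 against 107 CPM in batch 2. Sox9 was also higher in the dual gRNA pools of batches 1 (1860.2 against 209 CPM), 2 (905 against 491 CPM) and 3 (1492 against 382 CPM). In the dual gRNA pool of batch 4 it was lower, at 133 CPM (4 of 13 cells) against 177 CPM of control (9 of 15 cells). An edit need not lower the mRNA, so pools are named by their labels throughout. Libraries 10 and 14 of the batch 5 no gRNA pool had nearly the same counts (Pearson r of log2(CPM + 1) 0.989, next highest r in that batch 0.649), and so had libraries 13 and 14 of the Trps1 gRNA day 7 pool (0.993, next 0.615). Their counts differed by more than sampling noise (chi-square per degree of freedom 1.72 and 3.23), though by far less than those of any other pair (28.7 and 54.1 at the lowest). Each pair was counted as 1 cell, and values with the pair as 2 cells are given where they bear on a result.

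The genes lie on GRCm38 at chromosome 8, 25513654 to 25575718 (Fgfr1), chromosome 5, 33721674 to 33737068 (Fgfr3), chromosome 3, 37348346 to 37410108 (Fgf2), chromosome 11, 101769742 to 101785371 (Etv4), chromosome 16, 22381309 to 22439719 (Etv5), chromosome 3, 37639947 to 37644598 (Spry1), chromosome 14, 105891947 to 105896819 (Spry2), and chromosome 10, 99263231 to 99267489 (Dusp6). Fgfr2 lies on chromosome 7, and its GENCODE model runs from 130162451 to 133123350 over 69 other genes. Fgf2 overlaps Nudt6 on the opposite strand. Etv4, Etv5, Spry2 and Dusp6 overlap no annotated gene. The sources used here do not say whether counting used strand, and reads of Fgfr2, of Fgf2 and of the ligand Fgf1 described later could not be told apart from those of overlapping genes where exons coincide.

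The 250 bases before an annotated RefSeq transcription start are shown for 4 members, a receptor, an ETS factor and both kinds of feedback inhibitor, because these are the genes read in many cells whose pooled levels moved between pools. They come from RefSeq's windows on GRCm38.p6, which hold 7 of the 10 members. Fgfr3 and Etv5 have 2 windows each, of which the outer one is shown, and since their RefSeq starts lie inside the longer GENCODE models, these windows run into the models. The windows are written 5′ to 3′ on the gene's strand, with motif matches in capitals.
Fgfr3, chr5:33721474-33721723, plus strand: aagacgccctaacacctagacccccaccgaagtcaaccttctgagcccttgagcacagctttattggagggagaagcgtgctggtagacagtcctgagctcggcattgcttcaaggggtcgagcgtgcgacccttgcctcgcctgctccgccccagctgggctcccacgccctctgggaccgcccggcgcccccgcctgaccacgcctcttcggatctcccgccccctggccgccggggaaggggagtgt
Etv5, chr16:22439571-22439820, minus strand: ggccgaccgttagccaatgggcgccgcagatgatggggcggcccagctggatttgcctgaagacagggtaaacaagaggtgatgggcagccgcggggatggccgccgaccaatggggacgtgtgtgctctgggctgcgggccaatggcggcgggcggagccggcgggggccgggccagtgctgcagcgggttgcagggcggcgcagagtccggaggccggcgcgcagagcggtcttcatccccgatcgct
Spry2, chr14:105896820-105897069, minus strand: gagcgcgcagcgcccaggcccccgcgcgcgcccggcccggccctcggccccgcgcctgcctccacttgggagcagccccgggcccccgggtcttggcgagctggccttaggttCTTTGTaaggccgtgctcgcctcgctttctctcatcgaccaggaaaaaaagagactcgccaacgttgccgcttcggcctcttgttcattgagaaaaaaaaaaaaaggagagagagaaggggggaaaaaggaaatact
Dusp6, chr10:99262981-99263230, plus strand: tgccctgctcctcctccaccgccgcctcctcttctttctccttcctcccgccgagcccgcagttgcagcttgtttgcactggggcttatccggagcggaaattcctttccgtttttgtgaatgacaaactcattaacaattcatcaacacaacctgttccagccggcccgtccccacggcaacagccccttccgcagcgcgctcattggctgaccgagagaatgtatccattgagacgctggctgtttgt
Each window was searched on both strands for 1 word of ETS type, CCGGAA. The search words of SOX type were ACAAAG and, as the other spelling, ACAATG. The word of the GATA type, the family to which Trps1 belongs, was AGATAA. The only match in the 9 windows of the 7 members was ACAAAG on the opposite strand of Spry2, from 137 to 132 bases before the start. Over all 32851 windows of the same length, 12.03% held the ETS word, 25.2% a SOX word and 9.99% the GATA word.

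Counted per kilobase of exon, the scale on which genes can be compared, Spry2 was the highest member, with a median over the 16 astrocyte pools of 98.1 CPM per kilobase (range 23.9 to 699). Fgfr3 followed at 34.7 (4.79 to 145) and Dusp6 at 30.5 (0 to 123), and these 2 ranges overlapped over most of their length. Etv5 stood at 10.8, Fgfr1 at 7.46, Fgfr2 at 6.91 and Spry1 at 4.98 CPM per kilobase. The ligands were low, Fgf1 at 1.63 and Fgf2 at 0.0175 CPM per kilobase, and Etv4 stood at 0.386 and was at 0 in 7 of the 16 pools. Neighbours in this order did not differ beyond the spread over pools.

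Spry2 had a read in 182 of 240 astrocytes, Fgfr3 in 153, Dusp6 in 129, Fgfr1 in 111, Etv5 in 104 and Fgfr2 in 96. Fgf1 was read in 50 cells, Etv4 in 38, Spry1 in 34, and Fgf2 in 11 of the 217 cells whose tables list it. With each cell thinned to 100000 reads, which leaves 237 cells, the shares of Spry2 went from 75.8% to 67.9%, of Fgfr3 from 63.8% to 55.7%, and of Fgfr1 from 46.3% to 33.8%.

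In the 12 in-slice controls the receptors were at or near 0: Fgfr1 was read in 2 libraries and Fgfr3 in 3, at 4.33 CPM or less, and Fgfr2 and Etv4 in none, which allows a share of up to 26.5% (exact binomial limit). Spry1 was read in 1 library, at 5.19 CPM, and Fgf1 in 1, at 1.001 CPM. Spry2, Dusp6 and Etv5 were not low in all of them. Spry2 was read in 7 of 12, at up to 271 CPM. Dusp6 reached 1699 CPM in 1 batch 4 library and 118 CPM in 1 of batch 3, and was at 0 in 8 of 12 libraries. Etv5 was read in 5 of 12 and reached 665 CPM and 41.4 CPM in 2 batch 3 libraries. Reads of these 3 genes were thus also obtained without a cell, and their part in the astrocyte levels was not tested.

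**Figure D1:**
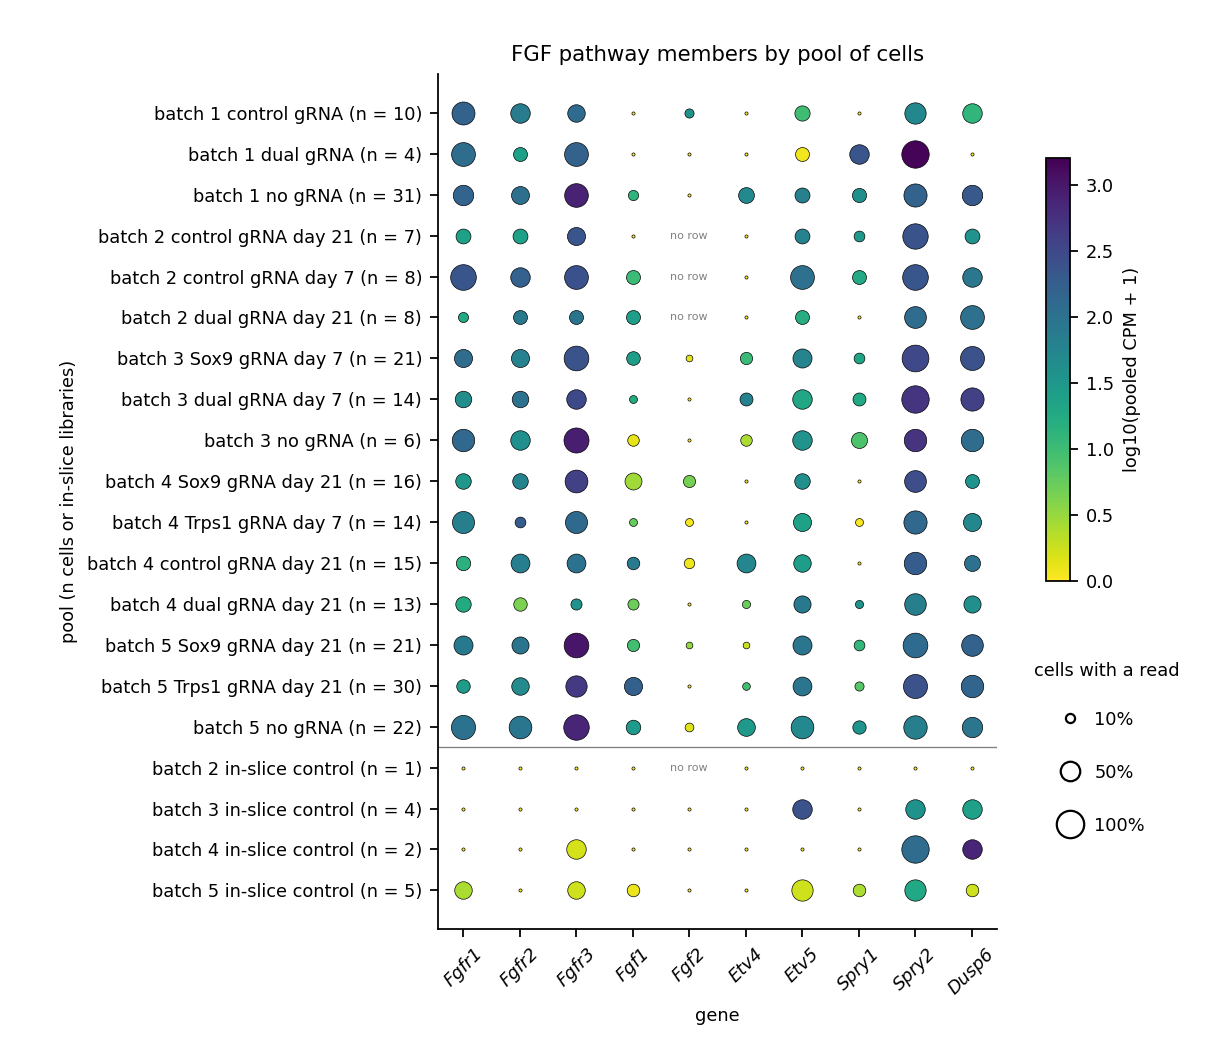
Levels of the 10 genes in each pool; the colour is log10 of pooled CPM + 1 and the area of a dot grows with the share of cells (or in-slice libraries, below the line) with a read. Spry2 and Fgfr3 are read in most pools, Etv4 is at 0 in 7 astrocyte pools, and Spry2, Dusp6 and Etv5 also appear in in-slice controls.

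Among the 240 astrocytes, 49 had a read of none of the 3 receptors, 71 of 1, 71 of 2 and 49 of all 3. The batch 5 no gRNA pool stood at one end, with all 3 receptors in 13 of 22 cells. The Sox9 gRNA pool of that batch had all 3 in 4 of 21 cells and the Trps1 gRNA pool in 2 of 30. At the other end, 7 of 13 dual gRNA cells of batch 4 had a read of none, and no dual gRNA cell of batch 2 had a read of more than 1 receptor. Fgfr1 was read in 88 of 153 cells with Fgfr3 (57.5%) and in 23 of 87 without it (26.4%), and within pools its share was higher beside Fgfr3 in 10 of the 11 pools with 3 or more cells on each side. The shares of Etv5 were 49.0% beside Fgfr3 and 33.3% without it (higher in 10 of 11 pools), those of Dusp6 61.4% and 40.2% (9 of 11), and those of Etv4 22.2% and 4.60% (7 of 11, lower in none). Cells with a read of Fgfr3 had a median of 4457 genes with a read and the others 3669, and the part of this in the shared detection was not tested.

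**Figure D2:**
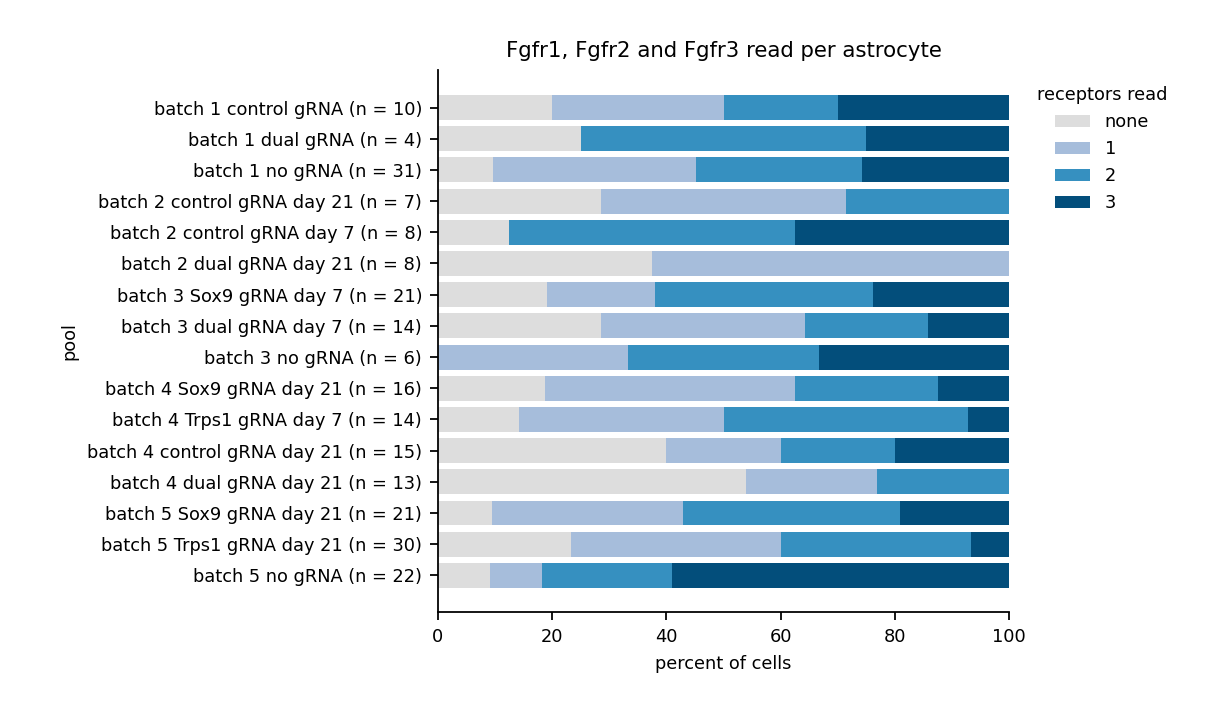
Percent of astrocytes in each pool with a read of none, 1, 2 or all 3 of Fgfr1, Fgfr2 and Fgfr3 (n cells in brackets). The batch 5 no gRNA pool has the largest segment for all 3 receptors (13 of 22 cells), and the batch 4 dual gRNA pool the largest for none (7 of 13).

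Pools were compared within batches by the log2 ratio of their CPM after 5 was added to each, which draws the ratios of low genes towards 0 and gives no bound where a pool is at 0. A gene was called where the ratio reached 1 in size in the same direction with all cells and without the highest cell of each pool for that gene, among genes at 5 CPM or more in the higher pool. Each count of members called is set beside the share of all genes called. Intervals given with CPM are exact Poisson intervals at 95%, those of shares exact binomial ones, and both cover counting error only, since reads without molecular identifiers are not independent molecules.

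A pair of comparisons held the most called members. In the batch 4 dual gRNA pool against the control gRNA pool, 7 of 9 members tested were called, 1 higher and 6 lower, where 25.7% of all genes tested were called. With the ratios centred on the median of all genes the count was 4 instead of 7. In batch 1, 6 of 10 members were called in the control gRNA pool against the no gRNA pool, all lower, where 35.5% of all genes were called. The median log2 ratio of the members was -1.42 in the first (all genes -0.43) and -2.06 in the second (all genes 0.26). In batch 4, 4 of 8 members were called with the Sox9 gRNA against control (29.3% of all genes), 3 of them lower, and 2 of 7 with the Sox9 against the dual gRNAs (28.7%), both higher. In batch 5, 5 of 9 were called with the Trps1 gRNA against no gRNA (27.4%), 2 higher and 3 lower, 3 of 9 with the Sox9 gRNA against no gRNA (27.1%), all lower, and 2 of 9 with the Sox9 against the Trps1 gRNA (25.8%).

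In batch 2, 3 of 8 members were called in the dual gRNA pool against control of day 21 (26.4% of all genes), 1 higher and 2 lower, and 3 of 8 in the control pool of day 21 against that of day 7 (31.2%), all lower. In batch 1, 3 of 8 were called in the dual against the control gRNA pool (35.4%), where the median log2 ratio of all genes was -1.65. Relative to that median the calls of Fgfr2 (-1.52) and Etv5 (-1.39) turned to 0.13 and 0.26. In batch 3 the no gRNA pool was shallow and most called genes were higher in the gRNA pools: 3 of 9 members were called with the Sox9 gRNA against no gRNA, where 51.4% of all genes were, and 4 of 9 with the dual gRNAs, where 44.3% were. Dual against Sox9 gRNA cells of day 7 gave 2 of 9, both lower (27.3%). The member counts lay near or below the share of all genes in all comparisons of batches 2 and 3. This also held for dual against control gRNAs in batch 1 and for Sox9 against dual gRNAs in batch 4. In batch 5 it held for the Sox9 gRNA against no gRNA and against the Trps1 gRNA. With so few members tested, these counts are no result about the members. Comparisons of a batch share pools, so they are not independent.

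**Figure D3:**
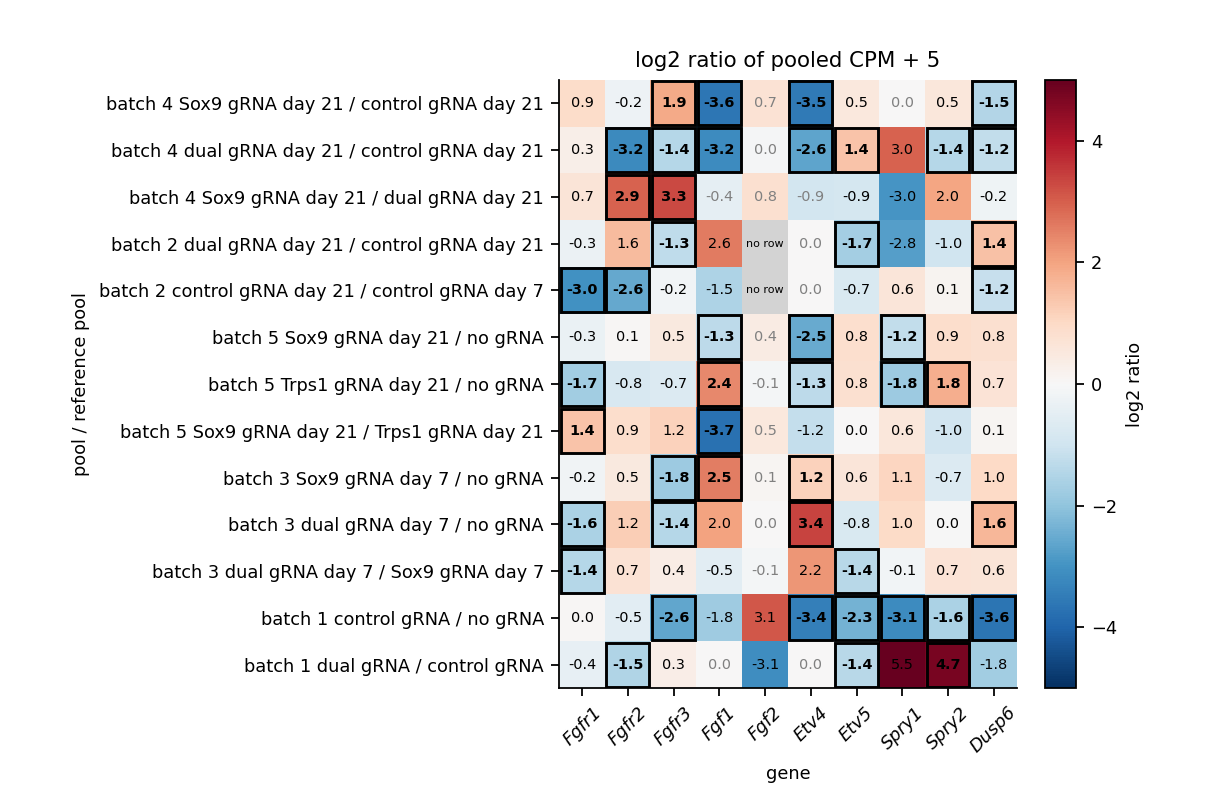
Log2 ratio of pooled CPM + 5 for each gene (columns) in each comparison (rows, pool / reference pool); boxed bold values were called, grey values were below 5 CPM in both pools. The row of batch 4 dual gRNA against control holds 7 boxes and that of batch 1 control against no gRNA holds 6.

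Fgfr3, the astrocytic receptor, was the receptor most often called, higher in 2 and lower in 5 of 13 comparisons. In batch 4 it stood at 385 CPM (376 to 395) with the Sox9 gRNA, 100.2 CPM (95.7 to 105) with the control gRNA and 34.3 CPM (31.5 to 37.2) with the dual gRNAs. Cells of the Sox9 gRNA pool ran from 0 to 1982 CPM (median 46.8), control cells from 0 to 691 (median 0) and dual gRNA cells from 0 to 334 (median 0), so the ranges overlapped. Fgfr3 was read in 11 of 16, 7 of 15 and 2 of 13 cells. The log2 ratio was 1.89 for the Sox9 gRNA against control, -1.42 for the dual gRNAs against control and 3.31 for the Sox9 against the dual gRNAs. The first 2 ratios share the control pool, and the second was -0.99 and no call after centring. Without the highest cell the dual gRNA pool held 0.0665 CPM, so its level was that of 1 cell.

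Fgfr3 was lower with a gRNA than without one in batches 1 and 3. The no gRNA pool of batch 1 held 771 CPM (761.7 to 781), where 23 of 31 cells had a read and the median cell held 621 CPM. The control gRNA pool held 122 CPM (116 to 129), with 4 of 10 cells and a median of 0 (log2 ratio -2.61). The 4 dual gRNA cells of batch 1 held 1.39, 831, 0 and 251 CPM. In batch 3 it stood at 846 CPM with no gRNA (5 of 6 cells), 240 CPM with the Sox9 gRNA (17 of 21) and 312 CPM with the dual gRNAs (7 of 14), log2 ratios -1.80 and -1.43, the second of which was lost with the mean of the cells' CPM (-0.41) and with 1 dual gRNA title series alone (-0.93). In batch 5 neither gRNA pool was called against no gRNA: the levels were 1039 CPM with the Sox9 gRNA, 458 CPM with the Trps1 gRNA and 734 CPM (741 CPM with the near-identical pair as 2 cells) with no gRNA. In batch 2 Fgfr3 was lower in dual gRNA cells (91.7 CPM, 2 of 8) than in control cells of day 21 (230 CPM, 3 of 7), log2 ratio -1.28, which was -0.92 after centring and -0.90 with size factors.

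Fgfr1 was lower with the Trps1 gRNA in batch 5. The pool held 26.7 CPM (24.7 to 28.7), with a read in 7 of 30 cells, against 101 CPM (96.1 to 106) with no gRNA, in 17 of 22 cells, and 79.6 CPM with the Sox9 gRNA, in 10 of 21. The median cell held 0 CPM with either gRNA and 24.1 CPM with none, and the highest cells held 256, 593 and 407 CPM. The log2 ratios were -1.74 for the Trps1 gRNA against no gRNA and 1.42 for the Sox9 against the Trps1 gRNA. With cells thinned to 100000 reads it was read in 15 of 22 no gRNA, 8 of 21 Sox9 gRNA and 5 of 30 Trps1 gRNA cells, the same order. The 3 title series of Trps1 gRNA cells were unlike, at 2 of 9, 5 of 10 and 0 of 11 cells, and with the second alone neither call held (-0.68 and 0.36). The latter was also lost with the mean of the cells' CPM.

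In batch 2 Fgfr1 was read in 7 of 8 control gRNA cells of day 7, at 225 CPM (218 to 232, median cell 172), and in 2 of 7 control gRNA cells of day 21, at 23.3 CPM (20.9 to 25.9), log2 ratio -3.02. Fgfr2 went the same way there, at 165 CPM and 24.0 CPM (4 of 8 and 2 of 7 cells, log2 ratio -2.55), though 91.2% and 99.7% of these reads came from 1 cell in each pool. In batch 3 Fgfr1 was lower in dual gRNA cells (41.6 CPM) than in Sox9 gRNA cells (119 CPM) and no gRNA cells (133 CPM), log2 ratios -1.41 and -1.57. The dual gRNA cells were unlike by title series, at 88.1 CPM (4 of 7 cells) and 0.616 CPM (1 of 7), and with the first alone neither call held (-0.41 and -0.57). The former was also lost against either Sox9 gRNA series alone.

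Fgfr2 was lower in the dual gRNA pool of batch 4, at 3.22 CPM (2.42 to 4.21) with a read in 3 of 13 cells, than in the control pool, at 69.7 CPM (65.9 to 73.7) in 7 of 15 cells, log2 ratio -3.18. The highest dual gRNA cell held 33.6 CPM and the highest control cell 480 CPM, and the median of both was 0. The Sox9 gRNA pool held 58.5 CPM (5 of 16 cells) and was called higher than the dual gRNA pool (2.95), not lower than control (-0.23). In batch 5 Fgfr2 was called in neither gRNA pool, though it was read in 15 of 22 no gRNA cells, 8 of 21 Sox9 gRNA and 12 of 30 Trps1 gRNA cells.

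Fgf1 was read in more cells than Fgf2. Its model lies on chromosome 18, 38838673 to 38929472, and overlaps Arhgap26 on the opposite strand. It stood at 171 CPM (166 to 176) in the Trps1 gRNA pool of batch 5, with a read in 13 of 30 cells, against 27.99 CPM (25.5 to 30.6) in 6 of 22 no gRNA cells and 8.20 CPM (6.89 to 9.67) in 4 of 21 Sox9 gRNA cells. The highest cells of the 3 pools held 2027, 342 and 81.2 CPM, and the median cell of each held 0. The log2 ratio was 2.42 for the Trps1 gRNA against no gRNA and 2.24 without the highest cells, although 53.2% of the reads lay in 1 cell. By title series the Trps1 gRNA cells held 51.8, 377 and 48.9 CPM, and with the first or the last series alone the call was lost (log2 ratios 0.78 and 0.71). The no gRNA series held 43.2 and 11.3 CPM. The Sox9 gRNA was called lower against no gRNA (-1.32, but -0.30 and no call against the lower of the no gRNA series) and against the Trps1 gRNA (-3.74).

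Fgf1 had other values in other batches. In batch 4 the control pool held 77.7 CPM, 85.8% of it from 1 of its 3 cells with a read, and the Sox9 gRNA pool 1.83 CPM in 6 of 16 cells, a call lost after centring. The dual gRNA pool held 4.24 CPM in 2 of 13 cells, 98.6% of it from 1 cell. It was also called lower than control (log2 ratio -3.16, and -1.71 without the highest cells), a call kept under every alternative run. In batch 3 the Sox9 gRNA pool held 25.9 CPM (5 of 21 cells) and the no gRNA pool 0.303 CPM, which is 1 read (log2 ratio 2.54, a call lost after centring or with 1 of 2 title series alone). In batch 1 Fgf1 was read in 4 of 31 no gRNA cells and in none of 10 control gRNA cells. Fgf2 was tested in 2 comparisons and called in none. It was read in 11 of 217 cells, and its highest pool level, 37.9 CPM in the batch 1 control gRNA pool, came from 1 cell at 274 CPM.

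Etv4, an ETS factor that ERK activity induces, was read almost only in some of the pools. With no gRNA it was read in 10 of 31 cells of batch 1, at 48.2 CPM (45.8 to 50.6), and in 9 of 22 cells of batch 5, at 28.4 CPM (25.9 to 31.1, or 32.4 CPM in 10 of 23 with the near-identical pair as 2 cells). It was read in 7 of 15 control gRNA cells of batch 4, at 52.7 CPM (49.4 to 56.1). The highest cells of these 3 pools held 391, 236 and 378 CPM.

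Etv4 was lower in each gRNA pool set against these 3. No read was found in the 16 Sox9 gRNA cells of batch 4 (at most 0.172 CPM, 3 reads of the pool, and 20.6% of cells), and 1 of 13 dual gRNA cells had reads, at 39.9 CPM. The log2 ratios against control were -3.53 and -2.62. In batch 5 it was read in 1 of 21 Sox9 gRNA cells (pool at 0.878 CPM, log2 ratio -2.51) and in 2 of 30 Trps1 gRNA cells (pool at 8.43 CPM, -1.32, but -0.89 with the mean of the cells' CPM and -0.95 against the lower of the no gRNA series, at 20.9 CPM). In batch 1 no read was found in 10 control gRNA cells, a pool labelled as control (at most 0.271 CPM and 30.8% of cells, log2 ratio -3.41), nor in the 4 dual gRNA cells. With cells thinned to 100000 reads Etv4 was read in 7 of 22, 1 of 21 and 2 of 30 cells of batch 5 and in 5 of 15, 0 of 16 and 1 of 13 cells of batch 4.

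The other pools did not share this pattern. Etv4 had no read in any of the 23 cells of batch 2, control gRNA cells included. In batch 3 it was higher with gRNAs, at 9.65 CPM (4 of 21 cells) with the Sox9 gRNA and 63.4 CPM (3 of 14 cells, 79.9% of reads from 1 cell) with the dual gRNAs, against 1.52 CPM with no gRNA, which is 5 reads of 1 of 6 cells (log2 ratios 1.17 and 3.39). All genes had a median log2 ratio of 1.43 with the Sox9 gRNA there, and relative to it that of Etv4 was -0.26. The call with the dual gRNAs was also lost after centring. In batch 5 the 2 Trps1 gRNA cells with Etv4 belonged to 1 title series, which by itself stood at 44.6 CPM, above the no gRNA pool (log2 ratio 0.57), while the other 21 cells had no read.

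Etv5, the second ETS factor, was called together with Etv4 in the batch 1 control gRNA pool (both lower) and in the batch 4 dual gRNA pool (Etv5 higher, Etv4 lower), and in no other comparison. In batch 5 it was read in 10 of 21 Sox9 gRNA cells and 14 of 30 Trps1 gRNA cells, at 89.9 and 88.8 CPM, and in 15 of 22 no gRNA cells, at 48.4 CPM, and was called in neither comparison (log2 ratios 0.83 and 0.81). In batch 4 it was higher in the dual gRNA pool, at 78.5 CPM (74.3 to 82.9, 5 of 13 cells), than in control, at 26.1 CPM (23.8 to 28.6, 6 of 15 cells), log2 ratio 1.42. The cells of these pools ran from 0 to 268 and from 0 to 161 CPM, with a median of 0 in both. In batch 2 Etv5 was at 14.96 CPM with the dual gRNAs and at 59.3 CPM in control cells of day 21 (2 of 8 and 2 of 7 cells, log2 ratio -1.69), the opposite direction. In batch 1 Etv5 was lower with the control gRNA, at 8.59 CPM against 64.2 CPM with no gRNA (log2 ratio -2.35), though the shares of cells were alike at 3 of 10 and 9 of 31. In batch 3 it was lower in dual gRNA cells (18.5 CPM) than in Sox9 gRNA cells (56.7 CPM), log2 ratio -1.39, a call lost with 1 title series of either pool alone (-0.78 and -0.68). In-slice libraries of batch 3 held Etv5 at a pooled level of 250 CPM, above every astrocyte pool, with 95.4% of the reads in 1 library. Those of batches 2 and 4 had no read of it.

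**Figure D4:**
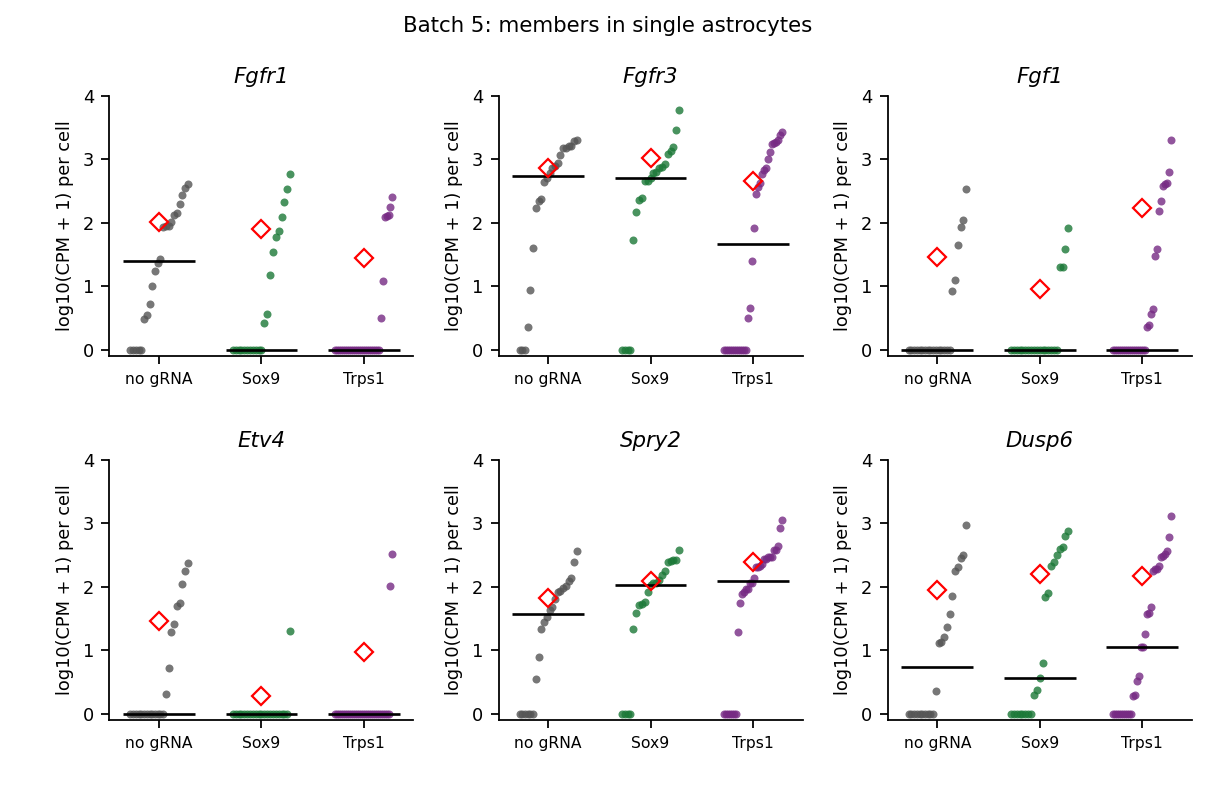
Single cells of batch 5 (points, sorted within each pool), as log10 of CPM + 1; the line is the median cell and the red diamond the pooled level. Fgfr1 is read in 17 of 22 no gRNA cells against 10 of 21 and 7 of 30, Etv4 in 9 against 1 and 2, and Fgf1 in 6 no gRNA and 13 Trps1 gRNA cells.

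Spry2, the most widely read feedback inhibitor, was higher with the Trps1 gRNA in batch 5, at 246 CPM (240 to 252), than with no gRNA, at 66.3 CPM (62.5 to 70.3), log2 ratio 1.81. With the near-identical pair as 2 cells the no gRNA pool held 75.1 CPM. It was read in 23 of 30 and 16 of 22 cells, with medians of 125 and 37.2 CPM and highest cells at 1120 and 362 CPM. By title series the Trps1 gRNA cells held 30.2, 233 and 349 CPM, so 1 of 3 series, of 9 cells, lay below the no gRNA pool (log2 ratio -1.02). The Sox9 gRNA pool held 125 CPM (17 of 21 cells) and was not called. In batch 4 Spry2 was lower in the dual gRNA pool, at 66.6 CPM, than in control, at 189 CPM (log2 ratio -1.44, a call lost with size factors or centring), with like shares of cells, 8 of 13 and 10 of 15. The 2 in-slice libraries of batch 4 held Spry2 at a pooled level of 120 CPM, above that dual gRNA pool, with 99.0% of the reads in 1 library. In batch 1 it stood at 49.8 CPM with the control gRNA against 159 CPM with no gRNA (-1.58). The 4 dual gRNA cells of batch 1 all had reads, from 41.7 to 3717 CPM, and 88.2% of them lay in 1 cell (log2 ratio against control 4.74, and 2.98 without the highest cells).

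Dusp6, the ERK phosphatase, had its widest difference in batch 1, at 11.9 CPM (9.91 to 14.1) with the control gRNA against 205 CPM (199.8 to 210) with no gRNA, log2 ratio -3.64. It was read in 5 of 10 and 17 of 31 cells, and the highest cells held 70.7 and 1712 CPM. In batch 4 it was lower than control (102 CPM, 5 of 15 cells) with the Sox9 gRNA (33.8 CPM, 4 of 16, 97.6% of reads in 1 cell) and with the dual gRNAs (40.0 CPM, 5 of 13), log2 ratios -1.46 and -1.25. Neither call held with size factors (-0.79 and -0.93) or after centring (-0.87 and -0.82), and the first was also lost with 1 of its 2 title series alone (-0.87). In batch 2 the dual gRNA pool was higher, at 103 CPM in 6 of 8 cells against 34.7 CPM in 2 of 7 control cells of day 21 (log2 ratio 1.45). However, 1 cell held 89.6% of the dual gRNA reads and 1 cell 99.8% of the control reads. Without these cells the pools held 12.1 and 0.0805 CPM, and the median dual gRNA cell with a read held 2.81 CPM. Control cells of day 21 were lower than those of day 7 (84.3 CPM, -1.17, and -0.75 after centring). In batch 3 it stood at 385 CPM with the dual gRNAs, 244 CPM with the Sox9 gRNA and 120 CPM with no gRNA (1.64 and 0.996, the second just under the fold). Relative to the median of all genes the first was 0.26 and no call, and it was 0.70 with size factors and 0.68 with the mean of the cells' CPM. In-slice libraries of batches 3 and 4 held Dusp6 at pooled levels of 23.4 and 746 CPM, the latter above every astrocyte pool.

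Spry1 was read in few cells. In batch 5 it stood at 34.0 CPM with no gRNA (5 of 22 cells), 11.4 CPM with the Sox9 gRNA (3 of 21) and 6.05 CPM with the Trps1 gRNA (3 of 30), and both gRNA pools were called lower (log2 ratios -1.25 and -1.82). The first call was lost against 1 no gRNA series alone (-0.88), the second with the mean of the cells' CPM (-0.90), with 1 Trps1 gRNA series alone (-0.34) and against 1 no gRNA series alone. In batch 1 it was read in 8 of 31 no gRNA cells, at 39.1 CPM, and in none of 10 control gRNA cells (at most 0.271 CPM, log2 ratio -3.14). It had no read in the 15 control and 16 Sox9 gRNA cells of batch 4.

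**Figure D5:**
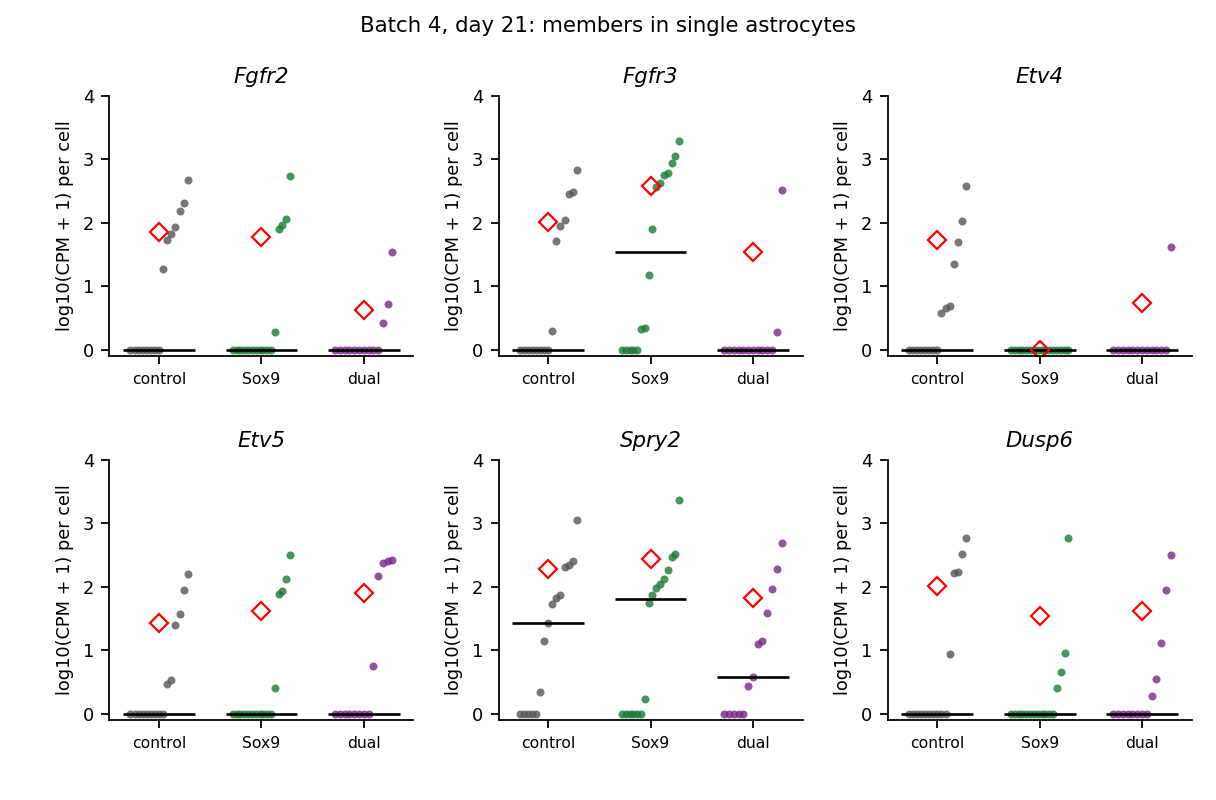
Single cells of batch 4, day 21, as log10 of CPM + 1 (points, sorted within each pool), with the median cell as a line and the pooled level as a red diamond. Fgfr3 is read in 7 of 15 control, 11 of 16 Sox9 gRNA and 2 of 13 dual gRNA cells, and Etv4 in 7, 0 and 1.

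Markers of other cells moved with several of these comparisons. In batch 5 all 14 microglia and macrophage markers were read in both gRNA pools and 13 of 14 in the no gRNA pool (Ptprc at 0), and their sum per cell ran from 14.1 to 44828 CPM (median 6068) with the Sox9 gRNA, from 0.842 to 42125 CPM (median 1814) with the Trps1 gRNA and from 0 to 1224 CPM (median 215) with no gRNA. In batch 1 the sum per cell ran from 11.7 to 32239 CPM (median 4611, 14 of 14 read) with the control gRNA and from 0 to 3587 CPM (median 3.56, 13 of 14, Ptprc at 0) with no gRNA. In batch 3 the no gRNA pool lacked reads of 7 of the 14, among them Cx3cr1, Tmem119 and C1qb, and summed to 247 CPM, against 9683 and 7048 CPM in the gRNA pools. In batch 4 the pools summed to 12027 CPM (control), 5692 CPM (Sox9) and 12619.7 CPM (dual). The astrocyte markers there, Fgfr3 not among them, summed to 18871, 16713 and 8496 CPM, lowest in the dual gRNA pool, where 6 of 9 members were lower. The 10 oligodendrocyte markers moved too: in batch 4 they summed to 3539 CPM in control cells (median cell 759, highest 55339.7, 10 of 10 read), 395 CPM with the Sox9 gRNA (median 18.9, highest 1813, Mog and Opalin at 0) and 1133 CPM with the dual gRNAs (median 547, highest 4314, Mog at 0). In batch 3 they summed to 582 CPM with no gRNA (5 of 10 read, Mog, Mag, Cldn11, Opalin and Ermn at 0), 6737 CPM with the Sox9 gRNA (10 of 10) and 1083 CPM with the dual gRNAs (7 of 10). In the same order, oligodendrocyte progenitor markers summed there to 69.1, 929 and 862 CPM and neuron markers to 1873, 4219 and 5057 CPM. The part of these differences in the members' levels was not tested.

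Trps1 gRNA cells of day 7 in batch 4 had no reference of their day. Their pool held Fgfr2 at 188 CPM in 2 of 14 cells, Fgfr3 at 132 CPM in 9 cells, Fgfr1 at 67.7 CPM in 9 cells, Spry2 at 136 CPM in 10 cells, Dusp6 at 51.9 CPM in 6 cells and Etv5 at 23.1 CPM in 6 cells. The highest cell for the gene held 93.1% of the reads of Fgfr2, 86.9% of Fgfr3, 76.7% of Fgfr1 and 88.1% of Dusp6. Without it these stood at 14.3, 18.5, 16.9 and 7.01 CPM. For Spry2 and Etv5 the highest cell held 36.9% and 33.6%. In-slice libraries of batch 4 held Dusp6 at 746 CPM and Spry2 at 120 CPM. Etv4 had no read in the 14 Trps1 gRNA cells.

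Each count of pathway genes below stands beside the share of all genes called in the same comparison and their numbers higher and lower. Of the pathway's other genes, 73 were listed: 20 FGF ligands, 9 receptors and co-receptors, 19 adaptors and Ras-MAPK kinases, 11 feedback inhibitors and 14 ETS factors and ERK-induced genes. Most other FGF ligands were rare. The intracellular FGF homologues Fgf12 and Fgf13 were read in 100 and 87 of 240 cells, and Fgf9, a secreted ligand, in 40. Fgfr4, the receptor outside the list of members, was read in 3 of 86 cells. Among the kinases, Araf was read in 163 cells and Map2k2 in 146, and Egr1, an immediate early gene, was read in 225 cells.

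In batch 4, 15 of 44 pathway genes tested were called with the Sox9 gRNA against control, 3 higher and 12 lower (all genes 29.3%, 926 higher and 2459 lower). Ccnd1, a cyclin, was read in none of 16 cells against 7 of 15 (165 CPM), Map2k2 stood at 5.49 against 225 CPM and Cbl, a ubiquitin ligase, at 21.2 against 80.0 CPM. With the dual gRNAs 6 were higher and 12 lower of 43 (all genes 25.7%, 891 and 2078), among the latter Ccnd1 (9.02 CPM), Spry4, a Sprouty (0 of 13 against 5 of 15 cells), Ptpn11, the phosphatase SHP2 (22.2 against 110 CPM), and Map2k2 (39.5 CPM). The Sox9 against the dual gRNAs gave 4 higher and 8 lower of 41 (all genes 28.7%, 1322 and 1749), led by Ier3, an ERK-induced gene (12.7 against 94.1 CPM), Araf (120 against 17.8 CPM), Hras and Spry4.

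In batch 5 the Sox9 gRNA gave 7 higher and 11 lower of 47 against no gRNA (all genes 27.1%, 1690 and 1636), and the Trps1 gRNA 10 higher and 6 lower of 47 (all genes 27.4%, 2444 and 1036). Fgfrl1, an FGF receptor without a kinase domain, was lower in both, at 8.96 and 16.5 CPM against 157 CPM (3 of 21 and 1 of 30 against 6 of 22 cells). Frs2, the adaptor bound to the receptors, was lower in both as well, at 4.80 and 9.48 CPM against 45.4 CPM (5 of 21 and 5 of 30 against 10 of 22 cells). The 2 comparisons share the no gRNA cells. Hras (11.1 against 38.9 CPM) and Plcg1 (25.6 against 101 CPM), a phospholipase activated by the receptors, were next with the Sox9 gRNA. Myc (38.2 against 11.9 CPM) and Fgfbp3, an FGF-binding protein (7 of 30 against 0 of 22 cells), were among the 4 largest with the Trps1 gRNA. Sox9 against Trps1 gRNA cells gave 2 higher and 9 lower of 47 (all genes 25.8%, 942 and 2335), among them Shc1, an adaptor that was higher (95.6 against 0.378 CPM).

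In batch 1 the control gRNA pool had 6 higher and 11 lower of 44 against no gRNA (all genes 35.5%, 2157 and 2180), and Ccnd1 (309 against 34.8 CPM), Ier3 (194 against 10.6 CPM) and Map2k1, an ERK kinase (179 against 7.78 CPM), were higher there while Hras was lower (19.4 against 81.96 CPM). Of the 7 other feedback inhibitors tested, 1 was higher and 5 lower (median log2 ratio -1.32). The dual gRNA pool gave 3 higher and 11 lower of 37 against control (all genes 35.4%, 473 and 3188), with Ccnd1 and Map2k1 again among the largest (24.3 and 34.4 CPM). In batch 2 the dual gRNA pool gave 2 higher and 10 lower of 36 (all genes 26.4%, 1087 and 1336), led by Ets1 (0.0483 against 295 CPM) and Elk3 (2.896 against 59.0 CPM), 2 ETS factors read in 3 and 2 control cells. Control cells of day 21 against day 7 gave 10 higher and 4 lower of 38 (all genes 31.2%, 974 and 2293), led by Map2k1 (9.31 against 249 CPM). In batch 3, 22 of 46 were higher and 4 lower with the Sox9 gRNA and 19 of 45 higher and 2 lower with the dual gRNAs against the shallow no gRNA pool, led by Araf, Map2k1 and Myc. All genes had like shares there, 51.4% (5733 higher and 383 lower) and 44.3% (4395 and 596), so these counts are no result about the pathway. Dual against Sox9 gRNA cells gave 9 higher and 6 lower of 49 (all genes 27.3%, 1033 and 2392), with Ccnd1 at 29.4 against 94.2 CPM. The count called also lay near the share of all genes in this comparison and in both comparisons of batch 1. So did those of the Sox9 gRNA against control and against dual gRNAs in batch 4, and of both comparisons in batch 2. In batch 5 this held for the Trps1 gRNA against no gRNA and for Sox9 against Trps1 gRNA. These counts are likewise no result about the pathway, and none of the counts was tested.

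The genes most like each member over cells were sought for the 6 members read in 30% or more of all astrocytes, as Spearman's rho of log2(CPM + 1) over astrocytes with 100000 or more reads, averaged over the 5 batches. The cells of a batch share their library preparation and differ in depth, and rho is a description here. Fgfr3 was most like Slc1a2, the glutamate transporter GLT-1 (mean rho 0.56, 0.53 to 0.62 over batches), Nwd1 (0.55) and Slc27a1, a fatty acid transporter (0.53). Fgfr1 was most like Ttyh3 (0.45, 0.15 to 0.68), Slc38a3, a glutamine transporter (0.42), and Grk3 (0.42), and Fgfr2 like Ntrk2, the neurotrophin receptor TrkB (0.40). Etv5 was most like Fbxo44 (0.42), Atp6ap2 (0.40) and Mbnl2 (0.40), and Spry2 like Malat1 (0.43), Slc39a1, a zinc transporter (0.43), and Arglu1 (0.42). No gene reached a mean of 0.4 with Dusp6. Among the members themselves Fgfr1 and Fgfr3 had the highest mean rho, 0.39 (0.28 to 0.52 over batches), and Dusp6 with Etv5 and with Spry2 reached 0.20 and 0.21.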

How the data were processed

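The authors deposited 1 table of raw read counts per gene and cell for each of 5 batches. The submitters' processing notes list the tools RSEM 1.3.0 and STAR 2.6.0a and the builds mm10 and GRCm38 without saying what each did, and strand and gene filters are not given in the sources used here. Rows that name no gene were left out of totals (75.6% of counts in batch 1, 22.3% in batch 2, under 1% elsewhere). Of 289 labelled samples, 254 had a column, and 35 of batch 4 were not analysed here. From the counts, pooled CPM (counts per 1000000 reads in genes), shares of cells with a read, and log2 ratios with a pseudocount of 5 CPM were computed (Python 3.11.15, pandas 2.3.3, scipy 1.17.1). With 1 pool per group no test was made. The rule for calls was run on simulated counts with changes of known size and Poisson noise only. These lack the spread between cells of the real pools, so the run cannot show how the rule does on them. Named were all 10 members, up to 4 called pathway genes per comparison by the size of the ratio without the highest cells, and up to 3 genes like each member (mean rho 0.4 or more). Some genes that this rule names are not reported here. A few widely read pathway genes and Fgfr4 were named after their values were seen. The members, lists and rules were chosen with earlier results of these data known. The alternatives tried were another pseudocount, other minimum levels, calls from all cells alone, equal weight of cells, size factors, centring, only cells with 100000 reads, and single title series. Sequences come from RefSeq and gene models from GENCODE.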

Additional observations from a re-analysis of the deposited data

Results flagged for a closer look

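In pools of 4 to 10 cells, members read in at least 50% of cells were checked for 1 cell apart from the others by Dixon's criterion on log2(CPM + 5), which chance alone meets in about 1 in 20 groups. Dusp6 had such a cell in the batch 1 control gRNA pool, at 70.7 CPM, and Fgfr1 and Spry1 in the batch 1 dual gRNA pool, at 438 and 645 CPM. Fgfr3 had 1 in the batch 3 no gRNA pool, at 0 CPM, where the other 5 cells had reads.

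Some members were called in opposite directions under a like contrast in different batches, and these differences were not tested. For the dual gRNAs against control of day 21, the log2 ratio of Etv5 was 1.42 in batch 4 and -1.69 in batch 2, and that of Dusp6 was -1.25 and 1.45. In batch 2, 1 cell of each pool held 89.6% (dual) and 99.8% (control) of the Dusp6 reads. For the dual gRNAs against control in batches 4 (day 21) and 1 (days not used), Etv5 stood at 1.42 and -1.39 and Spry2 at -1.44 and 4.74. The labelled days of batch 1 differ between its control and dual gRNA cells. For the Sox9 gRNA against no gRNA in batches 5 (day 21) and 3 (day 7), Fgf1 stood at -1.32 and 2.54 and Etv4 at -2.51 and 1.17. Only for Etv5 in batches 4 and 2 did both calls of a pair hold under every alternative run. After centring, Etv5 in batch 1, where the dual gRNA pool held 1 read, and Etv4 in batch 3 changed sign. The calls of Dusp6 and Spry2 in batch 4 and of Fgf1 in batch 3 were lost after centring. That of Fgf1 in batch 5 was lost against 1 no gRNA series.

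The Trps1 gRNA pool of day 7 in batch 4 entered no comparison, and 4 members at 5 CPM or more lay above the interval of the in-slice controls of that batch: Fgfr1 at 67.7 CPM, Fgfr2 at 188 CPM, Fgfr3 at 132 CPM and Etv5 at 23.1 CPM. With its near-identical pair as 2 cells these were 59.0, 163, 115 and 24.3 CPM. Without the highest cell for the gene they were 16.9, 14.3, 18.5 and 16.4 CPM. Fgf1 also lay above the in-slice interval, under the minimum of 5 CPM, at 4.57 CPM (1 of 14 cells).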

How the results depend on the processing

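No paired analysis was possible because no test was made between pools and the labels name no animal. Of the counts of members called under an alternative, 115 stayed within 1.5 times the reported count and 13 did not. With calls from all cells alone the count went from 2 to 4 for Sox9 against dual gRNAs in batch 4 (64.3% of all genes called), from 3 to 6 for dual against control of day 21 in batch 2 (75.6%), from 2 to 4 for Sox9 against Trps1 in batch 5 (44.0%) and from 3 to 6 for dual against control in batch 1 (86.1%). Centring on the median of all genes gave 4 instead of 7 for dual against control in batch 4 and 4 instead of 2 for Sox9 against Trps1 in batch 5. The latter count was also 4 with median-of-ratios size factors, 1 with the mean of the cells' CPM, 4 with the title series 21T2 alone and 5 with 21T3 alone. Trps1 gRNA against no gRNA in batch 5 gave 3 instead of 5 both with the mean of the cells' CPM and with 21T alone, and Sox9 gRNA against no gRNA in batch 3 gave 1 instead of 3 with 7S2 alone. Of 47 called values, 20 were called under every alternative run, 27 lost the call under at least 1, and 5 reversed. With 21T alone, Etv4 stood at 0.57 and Spry2 at -1.02 for Trps1 against no gRNA in batch 5. After centring, Etv4 stood at -0.26 for Sox9 gRNA against no gRNA in batch 3, and Fgfr2 at 0.13 and Etv5 at 0.26 for dual against control in batch 1. The cause was not tested. Depth limits the batch 3 no gRNA pool most.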
